A study of Bos taurus with 28 samples.

Results

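The miR-148 family was followed through extracellular vesicles (EVs) of raw cow's milk. Its members were taken by name: every miRNA of the table whose name is bta-miR-148 plus a letter, with bta-miR-152 to be added where it had a value. This gave 4 miRNAs, bta-miR-148a, bta-miR-148b, bta-miR-148c and bta-miR-148d, beside 128 other miRNAs in the table. bta-miR-152 was not analysed here.

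EVs were isolated from milk of 4 cows, and their small RNA was sequenced. Each cow was milked in the morning and in the evening of the same day, so that 14 morning and 14 evening libraries form 14 pairs of one cow and one day. Cow 1 gave 6 libraries (days 1, 3 and 4), Cow 2 gave 8 (days 1 to 4), Cow 3 gave 6 (days 1, 2 and 4) and Cow 4 gave 8 (days 1 to 4). No cow received a treatment according to the labels, and the somatic cell count (SCC) of each milk, the number of cells per mL and the usual sign of udder inflammation, was given with each sample. Each cow is a single animal, so a difference between cows is set against the spread of repeated milkings of that animal and does not extend to other animals. A vesicle sample is a mixture: fewer vesicles that carry a miRNA and less of that miRNA per vesicle cannot be told apart.

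miRNAs are short RNAs that guide Argonaute proteins to messenger RNAs and lower their stability or translation. The family of miR-148 and miR-152 shares its seed, the stretch near the 5′ end by which a miRNA recognises its targets. In human and mouse cells its members are known to act on DNMT1, the enzyme that copies DNA methylation at cell division, and on ABCA1, which exports cholesterol from cells. miR-148a is known as one of the abundant miRNAs of milk. The RefSeq annotation of the assembly ARS-UCD2.0 was used for names and neighbours only. In it the interval of MIR148D lies inside that of MIR148A, and the interval of MIR148C lies inside that of MIR152. Strand was not compared. Isomirs had been grouped under one name per miRNA before deposit. How reads that match more than one of these loci were assigned is not given in the sources used here. The split of reads between members with nested intervals is therefore uncertain.

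Levels are log2 CPM, the logarithm to base 2 of read counts set relative to the scaled size of each library, as deposited. Whole read counts could be worked back from all 3696 values within a tolerance of 0.01, and the reads of all miRNAs in the table added up to 101968 to 325211 per library. A miRNA without reads stands at 3.55 (11.7 CPM), and no member was without reads in any library. The table held 6 of 6 listed miRNAs of epithelial cells (their summed level was 16.07 to 16.74), 5 of 7 of leukocytes (10.44 to 12.90), 2 of 4 of stroma (5.12 to 8.58) and 2 of 5 of red cells (8.63 to 10.73). The highest of each were miR-200c (15.35), miR-181a (10.69), miR-143 (6.53) and miR-16a (9.77). Without a value under the listed name were miR-150 and miR-223 of leukocytes, and miR-145 and miR-199a-3p of stroma. The same held for miR-451, miR-486 and miR-144 of red cells, whose list was thus left with miR-16a and miR-16b only.

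bta-miR-148a was by far the most abundant member. Its level was 14.60 in the lowest library, 15.06 at the median and 15.82 in the highest, with a mean of 15.07 ± 0.33 (SD, n = 28), which ranked 8 from the top of the table. The rank of miR-148a was between 3 and 12 in each single library. It had 3515 to 12258 reads per library, so counting error was small for this member. Its share of a library's reads of all miRNAs in the table had a median of 3.23% over the 28 libraries. The share was 2.19% in the evening of day 3 in Cow 2 (95% Wilson interval 2.12 to 2.25%). In the morning of day 1 in Cow 4 it was 7.13% (7.01 to 7.25%). Such intervals cover counting error only. Duplicates had been removed before deposit, but the remaining reads may still not all be independent molecules.

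bta-miR-148d was the second member by level. It stood at 11.12 in the lowest library, 12.06 at the median and 12.74 in the highest (mean 12.05 ± 0.42, SD, n = 28; rank 31), with 314 to 1404 reads. bta-miR-148b stood at 7.21, 8.18 and 8.96 in the same order (mean 8.16 ± 0.40, rank 75) with 15 to 110 reads. bta-miR-148c was the rarest, at 4.38, 6.09 and 7.43 (mean 6.17 ± 0.67, rank 101) with 1 to 34 reads. The ranges of miR-148a, miR-148d and miR-148b did not touch one another, while the highest values of miR-148c reached into the range of miR-148b.

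Pooled over all libraries, miR-148a held 88.1% of the family's reads, miR-148d 11.0%, miR-148b 0.728% and miR-148c 0.172%. The whole family took 2.56% to 7.90% of a library's reads of all miRNAs in the table (median 3.71%). Without the small constant that the levels carry in the log, 3 reads give 8.35 to 32.4 CPM. With it, even a miRNA without reads stands at 11.7 CPM, so this limit cannot be set beside the levels. By its reads, 1 to 34 per library, miR-148c lay close in its lowest libraries to what could be detected. Its value of 4.38 in the evening of day 2 in Cow 4 rests on 1 read.

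**Figure D1:**
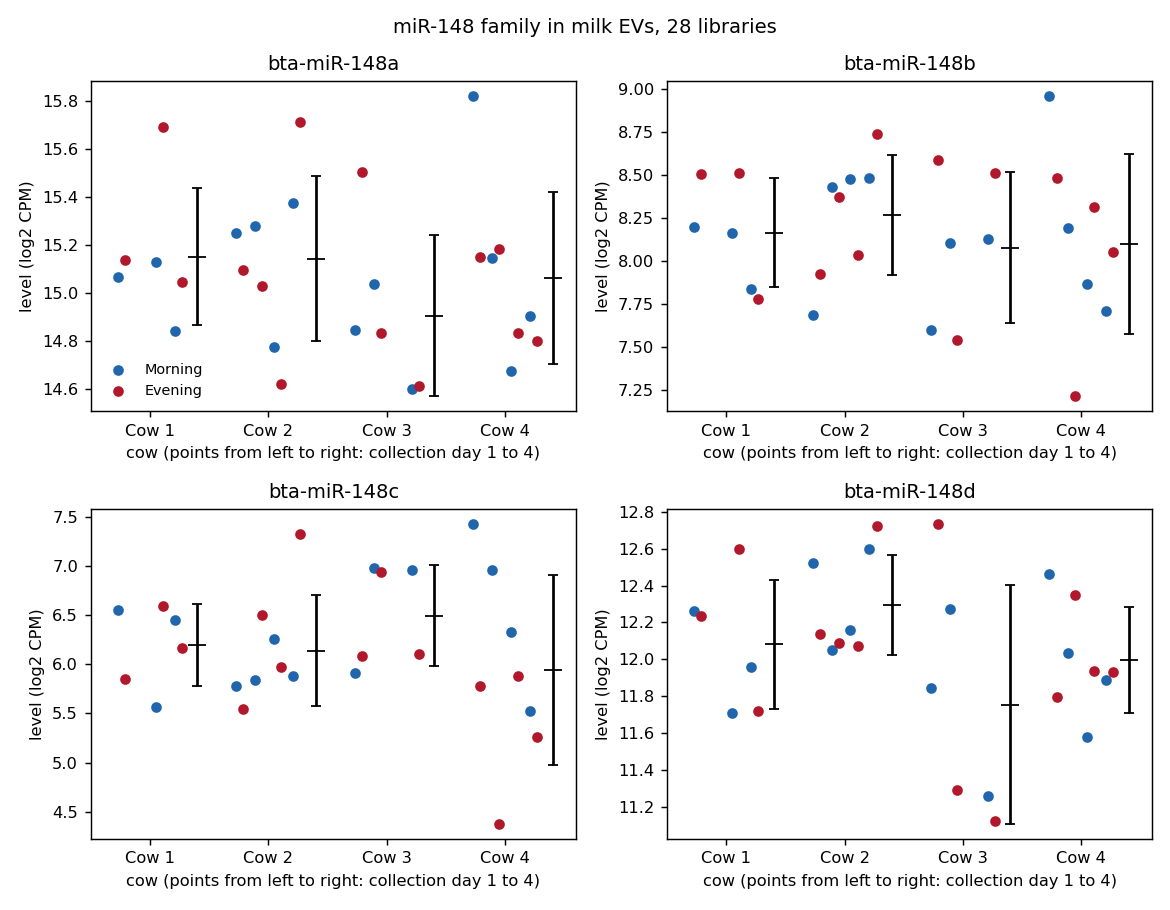
Level of each member in log2 CPM (vertical axes) by cow (horizontal axes), with collection days 1 to 4 from left to right within a cow, morning libraries in blue and evening libraries in red. Black bars are the mean ± SD of the cow's 6 or 8 libraries. The 4 cows overlap for every member, and Cow 3 holds both the lowest (11.12) and the highest (12.74) value of miR-148d.

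The first question was whether the family differed between morning and evening milk. For miR-148a the morning libraries ran from 14.60 over a median of 15.05 to 15.82, and the evening libraries from 14.61 over 15.07 to 15.71. Within the pairs the evening value was higher in 8 of 14 and lower in 6, and the fitted difference of evening minus morning was 0.04 (SE 0.12, 95% interval -0.22 to 0.29 in log2), which is a change of 0.859-fold to 1.22-fold. The sessions overlapped almost fully.

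miR-148d ran from 11.26 over 12.04 to 12.60 in the morning and from 11.12 over 12.08 to 12.74 in the evening. Its difference was 0.01 (SE 0.14, interval -0.28 to 0.30), with 7 of 14 pairs higher in the evening. miR-148b differed by 0.05 (SE 0.17, interval -0.29 to 0.40) and was higher in 8 of 14 pairs. These differences were all smaller than the SD of the pair differences, which was 0.34 for miR-148a and 0.52 for both miR-148b and miR-148d.

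miR-148c showed the largest difference of the family, and also the widest error. It ran from 5.52 over 6.29 to 7.43 in the morning and from 4.38 over 6.03 to 7.32 in the evening, and the evening value was lower in 10 of 14 pairs. The fitted difference was -0.29 (SE 0.25, interval -0.79 to 0.22). With limma and adjustment by Benjamini and Hochberg over the whole table, the adjusted p was 0.996 for each of the 4 members. No member was called, as was no miRNA of the table (0%), and at an unadjusted p below 0.05 there were 0 members and 2 miRNAs in all. In the tests of the session, the cows, SCC and the days, limma-voom on the recovered reads called 0 members as well.

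The largest mean evening drop of miR-148c was in Cow 4, where 4 of 4 pairs were lower, with a mean of -1.23. Its reads there were 34 in the morning and 5 in the evening of day 1, 18 and 1 on day 2, 13 and 17 on day 3, and 4 and 4 on day 4. Cows 1, 2 and 3 each had pairs in both directions, with means of evening minus morning of 0.02, 0.40 and -0.24. Whether evening and morning differed unequally among the cows was tested as an interaction, which no member passed. For miR-148c limma's F test of the interaction gave an adjusted p of 0.969. The interaction called 0% of the table's miRNAs (0, with 1 miRNA and 0 members at an unadjusted p below 0.05).

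**Figure D2:**
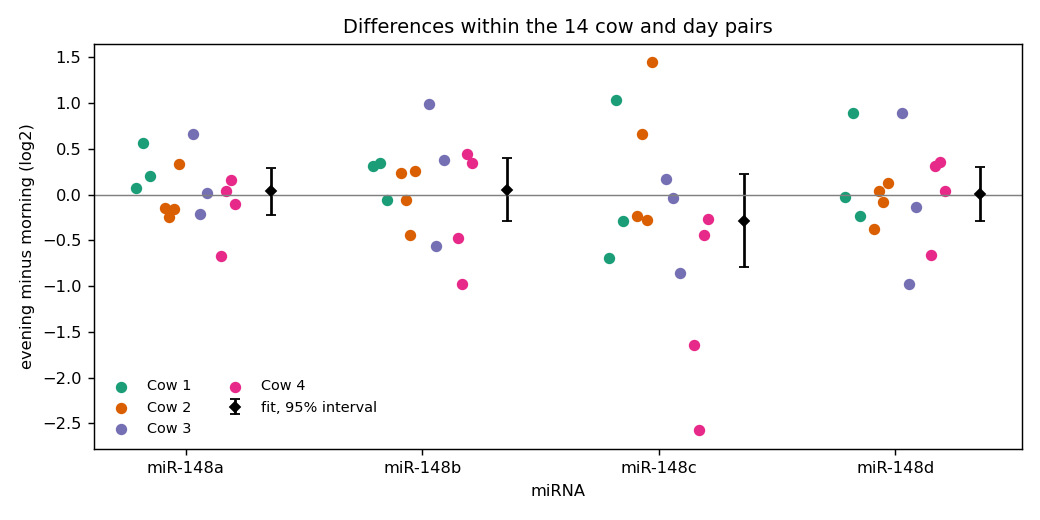
Evening minus morning level (log2, vertical axis) for each of the 14 pairs of cow and day, by member (horizontal axis) and cow (colour). Black diamonds are the fitted difference with its 95% interval, which includes 0 for all 4 members, and the 4 pairs of Cow 4 for miR-148c lie between -2.58 and -0.26.

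The second question was how the family differed between cows. Many miRNAs did: the F test over the 4 cows called 62 miRNAs (47.0%) at a false discovery rate below 0.05. It called 0 of the 4 members, and 0 were below an unadjusted p of 0.05 in limma. The adjusted p was 0.154 for miR-148d, 0.570 for miR-148c, 0.587 for miR-148a and 0.875 for miR-148b. The cow means took up 8.31% of the variance of miR-148a, 3.70% of miR-148b, 8.88% of miR-148c and 21.3% of miR-148d, against a median of 26.8% over all miRNAs. Such shares are not adjusted for the 4 fitted means, which take up a part of the spread even where cows do not differ.

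For miR-148a the order of the cow means was Cow 1 (15.15 ± 0.28), Cow 2 (15.14 ± 0.34), Cow 4 (15.06 ± 0.36) and Cow 3 (14.90 ± 0.34). SDs are over 6 libraries for Cows 1 and 3 and over 8 for Cows 2 and 4. The 4 ranges shared most of their length. No neighbours in this order differed beyond their spread, with differences of -0.01 for Cow 2 minus Cow 1 (interval -0.37 to 0.35), -0.08 for Cow 4 minus Cow 2 (-0.41 to 0.25) and -0.16 for Cow 3 minus Cow 4 (-0.52 to 0.20).

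miR-148b followed in the order Cow 2 (8.27 ± 0.35), Cow 1 (8.16 ± 0.32), Cow 4 (8.10 ± 0.53) and Cow 3 (8.08 ± 0.44). miR-148c had another order, with Cow 3 highest (6.49 ± 0.51) before Cow 1 (6.20 ± 0.42), Cow 2 (6.14 ± 0.56) and Cow 4 (5.94 ± 0.96). Cow 4 held the lowest and the highest value of miR-148c as well as of miR-148b. For these 3 members limma called none of the 6 pairs of cows.

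miR-148d was the only member with a called difference between 2 cows. Its 8 libraries in Cow 2 ran from 12.05 over a median of 12.15 to 12.72 (mean 12.29 ± 0.27). Its 6 libraries in Cow 3 were 11.84 and 12.74 in the morning and evening of day 1, 12.27 and 11.29 on day 2, and 11.26 and 11.12 on day 4 (mean 11.75 ± 0.65). So 4 of the 6 libraries of Cow 3 lay below the whole range of Cow 2, and 1 lay above it.

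Cow 3 minus Cow 2 was -0.54 for miR-148d (SE 0.20, interval -0.95 to -0.13, limma adjusted p = 0.0402), or 1.45-fold lower in Cow 3. This was 1 of the 4 members, where the same contrast called 30.3% of all miRNAs (22 higher and 18 lower). The contrasts of Cow 3 with Cow 1 and with Cow 4 called 0 members (0 also at an unadjusted p below 0.05), with 22.7% (13 higher, 17 lower) and 25.8% (15 higher, 19 lower) of all miRNAs called. miR-148d was lower in Cow 3 there too by value, at -0.33 (interval -0.77 to 0.11) against Cow 1 and -0.24 (-0.65 to 0.17) against Cow 4, though the latter was 0.04 with read totals.

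The call for miR-148d did not hold widely. Setting the library medians equal gave -0.34 (adjusted p = 0.195 in limma), scaling to read totals gave -0.42 (0.155), a fit without a variance trend gave -0.54 (0.0566), and limma-voom on the recovered reads gave -0.51 (0.0513). With each pair as a replicate block the adjusted p in limma was 0.0970. The call was also lost in the limma fit without the library of Cow 2 on day 1 morning (adjusted p = 0.0695), day 4 morning (0.0688) or day 4 evening (0.0861). The same held without Cow 3 on day 1 morning (0.0519), day 2 evening (0.106), day 4 morning (0.114) or day 4 evening (0.138). Without the evening of day 1 in Cow 3 the difference grew to -0.74 (adjusted p = 0.0024), and the F test over the cows then called miR-148d as well (adjusted p = 0.0143).

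The scaling moved the level of all miRNAs in this contrast. The median over all miRNAs was -0.02 as deposited, 0.18 with library medians set equal and 0.10 with read totals, and the calls were then 33 higher with 14 lower and 20 higher with 12 lower. Relative to that median, miR-148d stood at -0.52 as deposited, a value that a shift of whole libraries leaves nearly fixed by construction, and at -0.73 with quantile normalization. Against Cow 1 the median shifted from -0.06 to 0.11 and 0.20 (19 higher with 7 lower, and 20 with 7), and against Cow 4 from -0.01 to 0.25 with read totals (28 higher with 11 lower).

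**Figure D3:**
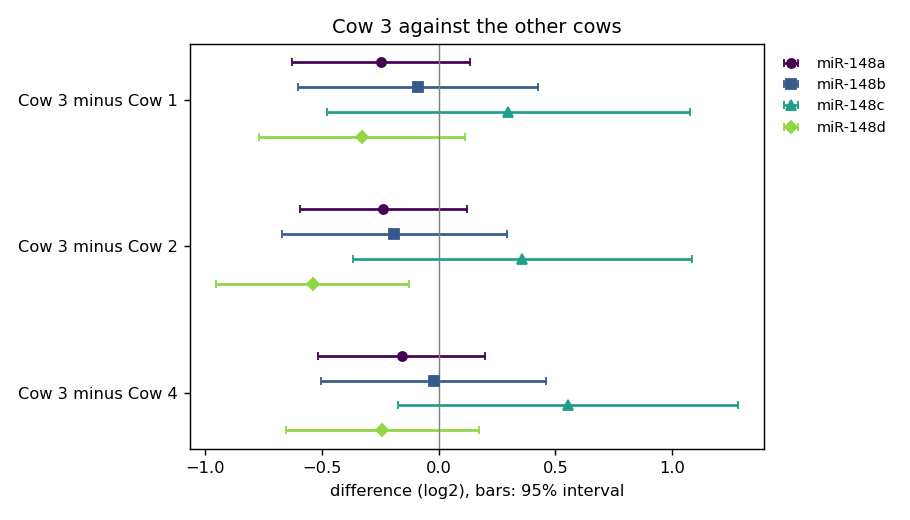
Difference of Cow 3 from each other cow (log2, horizontal axis) for the 4 members, with 95% intervals from the fit over all 28 libraries. Only the interval of miR-148d against Cow 2 (-0.95 to -0.13) leaves out 0, and miR-148c is the only member whose 3 differences lie above 0.

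The third question was whether the family moved with the SCC of the milk. The slope of miR-148a was -0.04 in log2 per doubling of SCC (interval -0.19 to 0.12), with cow as a covariate. It was -0.00 for miR-148d (-0.18 to 0.18), 0.08 for miR-148b (-0.13 to 0.29) and -0.09 for miR-148c (-0.41 to 0.23). No slope of a member passed limma's test (0 of 4, and 0 at an unadjusted p below 0.05), where 2.27% of all miRNAs did. The slope rests on few milks, since the milk of day 3 in Cow 1 and Cow 2 held the 4 highest SCC.

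miR-148a took no common direction in these milks. In Cow 1 it was 15.13 in the morning, at an SCC of 297 in units of 1000 cells/mL, and 15.69 in the evening, at 190, with the other 4 libraries between 14.84 and 15.13. In Cow 2 it was 14.78 at an SCC of 163 in the morning and 14.62 at 300 in the evening, both below the other 6 libraries of that cow (15.03 to 15.71). miR-148d was 11.71 and 12.60 in the same 2 milks of Cow 1, the ends of its range in that cow, and 12.16 and 12.07 in Cow 2, within the range of the others. Collection day and SCC cannot be told apart within these 2 cows. The difference between them was not tested.

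**Figure D4:**
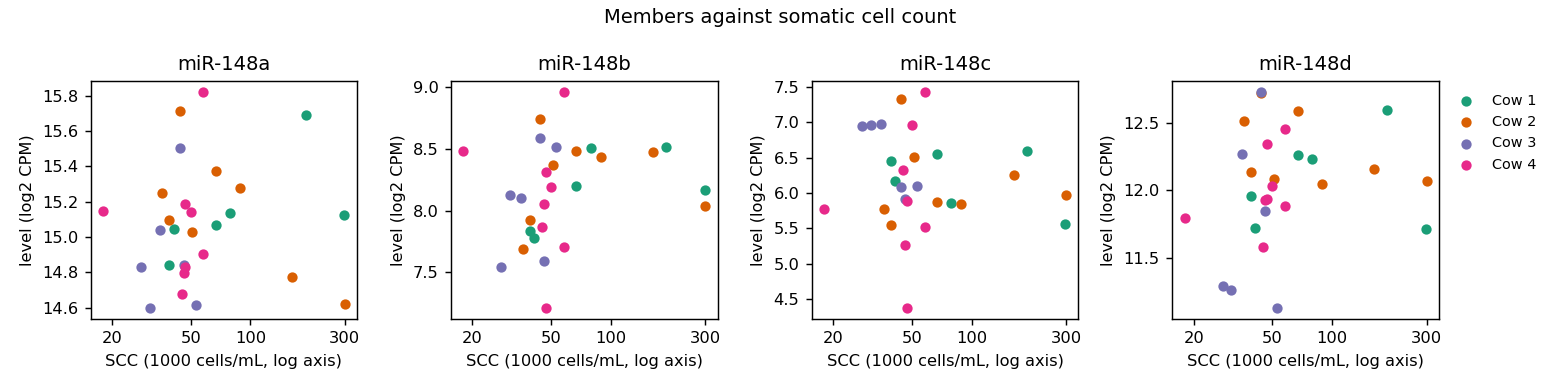
Level of each member (log2 CPM, vertical axes) against the SCC of the milk (1000 cells per mL, log axis), by cow. The 2 milks of Cow 2 with the highest SCC have the lowest miR-148a values of that cow (14.78 and 14.62), and the 95% interval of each fitted slope includes 0.

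Collection day gave no called difference either. The mean level of miR-148a was 15.23 on day 1, 15.08 on day 2, 14.95 on day 3 and 14.99 on day 4, and that of miR-148d was 12.25, 12.01, 12.01 and 11.90. In limma's F test over days, with cow and session as covariates, the adjusted p was 0.687 for miR-148a and miR-148d, 0.913 for miR-148b and 0.996 for miR-148c. The test called 0 members and 0% of all miRNAs (0, with 13 miRNAs and 0 members at an unadjusted p below 0.05).

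The ratios between members show how far the family kept its proportions. A ratio within a library does not depend on the scaling of the libraries, apart from the small constant in the log. miR-148a exceeded miR-148d 8.13-fold on the mean log2 scale (3.02 ± 0.27, SD, n = 28), from 5.85-fold in the evening of day 3 in Cow 2 to 11.6-fold in the evening of day 2 in Cow 3. The log2 ratio was lowest in Cow 2 (2.85 ± 0.22) and highest in Cow 3 (3.15 ± 0.35). Cows 1 and 4 both stood at 3.07 (SD 0.25 and 0.21). Counting error alone would give this ratio an SD of 0.061. Library preparation and the uncertain assignment of reads between both miRNAs are not part of that value, and their share in the spread was not tested.

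miR-148a exceeded miR-148b 121-fold (log2 6.91 ± 0.38, from 68.7-fold to 251-fold), where counting alone gives an SD of 0.23. It exceeded miR-148c 478-fold (log2 8.90 ± 0.68, with 0.55 from counting). miR-148b exceeded miR-148c 3.96-fold (log2 1.99 ± 0.60), where the counting value is 0.60. The counting values were worked out without the constant in the log, which narrows the spread of levels at few reads. With miR-148c, at 1 to 34 reads, they are therefore too large to set beside the SD of the levels. For this last pair, how far the spread exceeds counting cannot be read from these values.

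When each miRNA was taken as a log2 ratio to miR-148a, none of the other 3 members was called between sessions, between cows or along SCC in limma (0 of 3 in each, and 0 at an unadjusted p below 0.05). Over the 131 ratios, 0% were called for the session (0, with 1 at an unadjusted p below 0.05), 23.7% for the cows and 0% for SCC (0, with 8). For miR-148d the adjusted p of the F test over cows was 0.526.

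**Figure D5:**
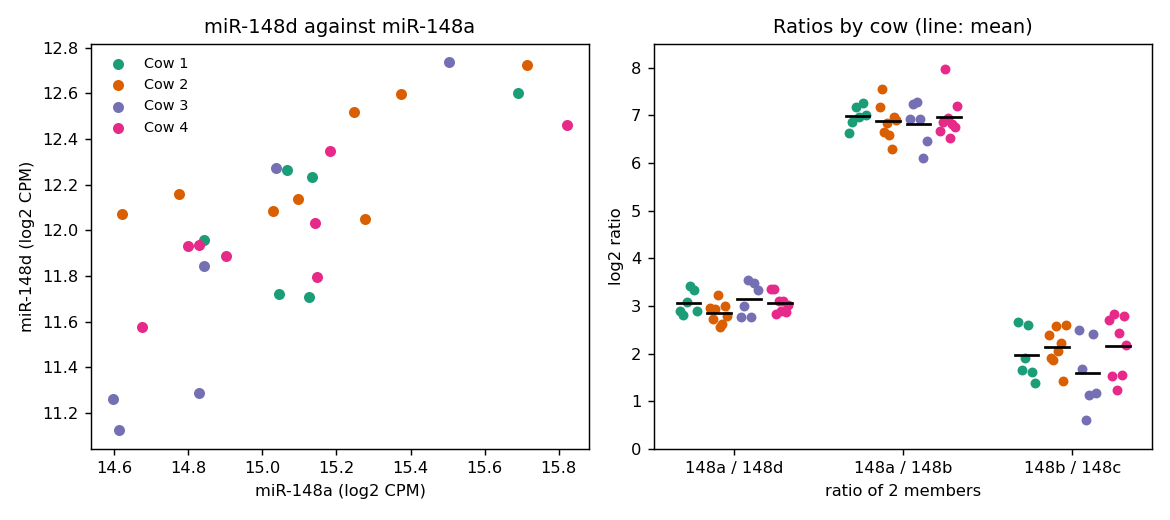
Left, miR-148d against miR-148a (log2 CPM on both axes) in the 28 libraries, coloured by cow. Right, log2 ratio of 3 pairs of members by library and cow, with the mean of each cow as a line. The ratio of miR-148a to miR-148d stays between 2.55 and 3.54, and the ratio of miR-148b to miR-148c scatters with an SD of 0.60.

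miR-148d and miR-148a varied together over the libraries. Their Pearson r was 0.77 (Spearman's rho 0.72, n = 28 libraries), and 0.77 again after the cow means had been removed. The libraries share 4 animals and their scaling, and the annotated intervals of both miRNAs are nested, so this is given as a description. By scaling, r was 0.73 with library medians set equal and 0.80 with read totals. miR-148a and miR-148b gave r = 0.48 (rho 0.42), and miR-148b and miR-148c gave 0.46 (rho 0.33). For miR-148a and miR-148c r was 0.22, and for miR-148c and miR-148d it was 0.01. These lower values depended on the scaling: with read totals r was 0.71 for miR-148a and miR-148b, 0.48 for miR-148a and miR-148c, and 0.25 for miR-148c and miR-148d.

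Among the 131 other miRNAs, miR-148d had the pattern most like that of miR-148a. It was followed by miR-151-3p (r = 0.68), miR-182 (0.62), miR-2478 (0.55) and miR-99b (0.54), while miR-148b ranked 7 and miR-148c ranked 27. miR-148d kept its first rank by Spearman's rho, after removal of cow means, with library medians set equal and with read totals. With read totals miR-148b moved to rank 4, while miR-99b moved to rank 7 and miR-2478 to rank 15.

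The SD of miR-148a within cows was 0.34, which ranked 32 from the smallest in the table. Among the 20 miRNAs nearest to it in level, however, 13 had a lower SD (median 0.29), and the same count held for miR-148d (13 of 20, median 0.29). miR-148d ranked 47 (0.41), miR-148b ranked 52 (0.43) and miR-148c ranked 107 (0.67), with a median of 0.48 over all miRNAs. Counting alone gives 0.02 for miR-148a, 0.06 for miR-148d, 0.23 for miR-148b and 0.55 for miR-148c. These values leave out the constant in the log, so that of miR-148c, with few reads, is too large to set beside its SD. The spread of miR-148a and miR-148d exceeded counting error, which leaves out the error of library preparation.

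Other miRNAs linked to the same roles were counted beside the family, as descriptions, and each count called between cows stands against 47.0% of all miRNAs called by the same F test. Of the miR-29 family, which acts on DNA methyltransferases in human and mouse cells, 3 of 3 were in the table and 2 of them differed between cows by limma's F test. These were miR-29b (mean level 7.46, adjusted p = 0.0171 in limma) and miR-29c (7.60, adjusted p = 0.0200 in limma), while miR-29a (10.23) had an adjusted p of 0.385. Of 12 miRNAs linked to lipid and cholesterol handling, 8 were in the table and 3 were called between cows, among them miR-27b (12.12, adjusted p = 0.0207 in limma) and miR-103 (10.90, adjusted p = 6.3e-04). miR-30c (10.59) did not pass.

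Of 14 other abundant milk miRNAs, all 14 were in the table and 9 were called between cows, again against 47.0% of all. miR-200c (15.35, limma adjusted p = 0.0022) was one of them, while let-7a-5p (17.39) and let-7b (16.84) did not pass. Among the cell type lists, the F test over cows called 3 of the 6 miRNAs of epithelium, 4 of the 5 of leukocytes, both of stroma and both of red cells, beside 47.0% of all miRNAs. Of all these lists 0 miRNAs were called for the session and 0 for the day, and miR-141, which stands in both the epithelial and the milk list, was lower at higher SCC (-0.31 per doubling, limma adjusted p = 0.0321). In the contrast of Cow 3 with Cow 2, which called 30.3% of all miRNAs, the epithelial list had 1 of 6 called higher (miR-200c, 0.40). The leukocyte list had 2 of 5 called higher, miR-181a (1.61) and miR-181b (1.52), while miR-342 (-0.68) did not pass. Of the stromal list 1 of 2 was called lower (miR-143, -1.06). Of the red cell list, here only miR-16a and miR-16b, 1 of 2 was called higher (miR-16b, 1.18), while miR-16a (0.0031) did not pass. With miR-451, miR-486 and miR-144 without a value, this list is not a measure of red cells. These list values stand beside the difference of miR-148d between Cow 3 and Cow 2, whose call did not hold widely. Their part in it was not tested.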

How the data were processed

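Levels were taken as deposited: log2 CPM, which the authors made with edgeR from small RNA reads of milk EVs after trimming, removal of duplicates, a CPM filter, matching to bovine miRBase entries and grouping of isomirs. No genome build is given in the sources used here. Whole reads were recovered with a prior count of 2 in all values, and served for read totals, counting errors and limma-voom.

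Sessions, cows, SCC (log2) and days were compared with limma 3.58.1 (R 4.3.3) with a variance trend, over all 28 libraries and the whole table, two-sided, at a false discovery rate of 0.05. Cow was a covariate outside the comparisons of cows, and session was a further one in the test of days. The fits were tested on simulated data. Libraries of one pair share cow and day by their labels. Their residuals correlated at a mean of 0.077 (above 0.1 in 6 of 14 pairs), against -0.203 for libraries of one cow on other days, where removal of cow means lowers the value. Fits with the pair were alternatives. In tests of cows and days the pair entered as a replicate block with a shared correlation. In tests of session and SCC it entered as a term for each pair, so that only differences within pairs counted. Other alternatives were scalings, filters, sessions, days and single libraries. Named miRNAs were the members, the 5 most like miR-148a and up to 3 of each of 7 lists by level; miR-141 was named after its value was seen. Members and lists were chosen with earlier results of these data known. Tests between cows rest on repeated milkings of single animals. No member sequence was in the files used.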

Additional observations from a re-analysis of the deposited data

Results flagged for a closer look

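A library standing far from the others of its cow was found in 3 of 40 sets of values. Each set was a member or ratio in a single cow, and chance gives about 1 in 20 for a set. Ratios are built from the same members, so the sets are not independent and 3 cannot be called an excess. miR-148a was 15.69 in the evening of day 3 in Cow 1, where the next highest library had 15.13. It was 15.82 in the morning of day 1 in Cow 4, where the next had 15.18; this library had 12258 reads of miR-148a. The log2 ratio of miR-148a to miR-148b was 7.972 in the evening of day 2 in Cow 4, with 7.19 next, and miR-148b had 15 reads there.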

How the results depend on the processing

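Under all alternatives other than leaving out a library, 378 of the members' values were counted as kept, 7 lost the call and 21 changed sign, none of the latter called. For fits with a sign, kept means the same direction and the same side of the threshold. F tests have no direction, so for them it means the same side only. The 378 also hold 4 correlations of miR-148d with miR-148a, which have no threshold and were counted as kept without a check. The lost calls are those of miR-148d in Cow 3 against Cow 2, so the count of members called in Cow 3 fell from 1 to 0 with library medians set equal, with read totals, without a variance trend, with limma-voom, with the pair as a replicate block (-0.54), in morning libraries (-0.54, limma adjusted p = 0.173) and in evening libraries (-0.54, limma adjusted p = 0.261). With quantile normalization it kept the call (-0.67, limma adjusted p = 0.0196). Neither the block nor the term for each pair changed another call.

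With read totals, the sign changed: Cow 3 minus Cow 1 was 0.030 for miR-148a and 0.18 for miR-148b, and Cow 3 minus Cow 4 was 0.13 for miR-148a, 0.25 for miR-148b and 0.044 for miR-148d. With library medians set equal, miR-148b was 0.082 against Cow 1 and 0.012 against Cow 2, and with quantile normalization 0.080 against Cow 1 and 0.0083 against Cow 4. Against Cow 4 it was 0.0023 with session and day added and 0.20 in evening libraries. The SCC slope of miR-148a was 0.12 with a term for each pair, 0.062 without milk above 200000 cells/mL and 0.087 without day 3. That of miR-148d was 0.073, 0.13 and 0.17 in the same settings, 0.0086 with medians set equal, 0.0047 with limma-voom and 0.00047 with session added. That of miR-148c was 0.0092 without milk above 200000 cells/mL.

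Leaving out each library in turn gave 0 to 1 members called for the F test over cows and 0 to 1 for Cow 3, with -0.74 to -0.41 for miR-148d against Cow 2. Values that changed sign ranged from -0.016 to 0.10 (miR-148a) and -0.077 to 0.067 (miR-148d) for the session, from -0.19 to 0.020 and -0.15 to 0.10 (miR-148b against Cow 1 and Cow 4), and from -0.083 to 0.041 (miR-148a) and -0.042 to 0.054 (miR-148d) for SCC. As ratios to miR-148a they ranged from -0.047 to 0.10 (miR-148b) and -0.062 to 0.0076 (miR-148d) for the session, and from -0.13 to 0.022 (miR-148c) and -0.0033 to 0.096 (miR-148d) for SCC. The cause was not tested. The ratios with the pair as a replicate block or term or without a variance trend, and the correlations with read totals, were alternatives chosen after seeing the data.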
